A study of Mus musculus with 40 samples.

Results

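All 40 renal cortices of the series were compared by genotype. The 20 diabetic kidneys came from male Ins2-Akita heterozygous mice on C57BL/6J and the 20 control kidneys from their wild-type (WT) littermates. Mice of both genotypes were treated by oral gavage from 6 to 22 weeks of age with 1 of 4 treatments, 5 mice per genotype and treatment: the ethanol vehicle (10% ethanol in water), MitoGamide at 10 mg/kg (a mitochondria-targeted scavenger of reactive dicarbonyls such as methylglyoxal), water, or MitoQ (a mitochondria-targeted antioxidant whose dose the labels do not give). Daily dosing is stated for the ethanol vehicle and MitoGamide only. The treatment was the blocking factor, so that each Akita kidney was set against WT kidneys given the same treatment. Of 55401 genes in the table, 17769 averaged 10 counts or more across libraries and were tested, and 3717 of these passed the test and had the same direction in all 4 treatments.

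The Akita allele is a dominant mutation of Ins2, an insulin gene of the pancreatic beta cell, whose misfolded product damages that cell, so that heterozygous males become diabetic early in life. The renal cortex is mostly proximal tubule, which takes filtered glucose, amino acids and phosphate back from the urine, burns fatty acids, makes glucose and clears drugs and steroids. In mice it is also a tissue with a marked sex difference, in which testosterone raises a set of transporters and cytochromes P450. The comparison asks which transcripts differ between diabetic and non-diabetic cortex whatever the mouse was given.

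Libraries held between 9106654 and 24321424 estimated counts. Ins2 itself had 0 to 2 counts per library and Ins1 had none, so neither could check the genotype labels. The 10 most abundant genes took 24.8% to 72.5% of a library's counts, and in 10 libraries, 5 Akita and 5 WT and all from the water or MitoQ groups, they took over 40%. The mitochondrial ribosomal RNAs mt-Rnr1 and mt-Rnr2 took a median of 20.2% of counts in Akita and 16.6% in WT on ethanol, 24.5% and 19.4% on MitoGamide, 27.3% and 20.9% on water, and 25% and 23.1% on MitoQ. Proximal tubule markers summed to 6510 to 25600 CPM per library. Marker sums, here and below, were scaled to raw library totals, without the normalization applied to the CPM of individual genes. WT water replicate 1 stood apart in liver transcripts, with Alb (albumin) at 292 CPM (counts scaled to a common library total) against 1.98 to 31.2 CPM in the other 39 libraries. Without the 10 libraries, 5318 genes were called in place of 4045, and without WT water replicate 1 the fold changes of the liver-expressed genes Pzp, Ces1g and Slco1a1 were −2.63, −3.97 and −2.87 on the log2 scale, against −2.72, −3.95 and −2.93 with it.

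At an adjusted p under 0.05 (edgeR's quasi-likelihood test, Benjamini-Hochberg adjustment), 4045 genes differed between Akita and WT cortex, 22.8% of those tested. Of these, 1952 were higher in Akita (11.0%) and 2093 were lower (11.8%). The direction was the same in all 4 treatments for 3717 of the 4045, or 91.9%, against 39.1% of all genes tested, and both shares rest on the same libraries. Among the 3717, 1792 rose (10.1% of genes tested) and 1925 fell (10.8%). Most changes were modest, with a median size of 0.40 on the log2 scale, although 131 genes rose and 189 fell by more than 1. In 42 genes (0.236% of those tested) the 20 Akita and 20 WT values did not overlap at all, 14 with every Akita kidney above every WT kidney and 28 with every Akita kidney below.

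Kynu led the raised genes. It encodes kynureninase, the vitamin B6-dependent enzyme that splits kynurenine, a breakdown product of tryptophan. Akita kidneys had between 18 and 56.6 CPM (median 36.0) and WT kidneys between 3.39 and 8.97 CPM (median 6.39), without overlap, a log2 fold change of 2.53 ± 0.12 (SE, adjusted p = 5.96e-19). The gene lies on chromosome 2 from 43555329 to 43682715 (GRCm38). Pdxk, the kinase that makes the active form of vitamin B6, rose with it, from a median of 78.9 CPM in WT to 172 CPM in Akita, a log2 fold change of 1.13 ± 0.09 (adjusted p = 2.02e-13).

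Several other leading genes encode enzymes of detoxification. Gsta2, a glutathione transferase, had 134 to 396 CPM (median 273) in Akita and 33.6 to 127 CPM (median 78.1) in WT, again without overlap, and its log2 fold change was 1.66 ± 0.13 (adjusted p = 3.29e-13). Ephx1, the microsomal epoxide hydrolase, ranged from 25.5 to 90.4 CPM in Akita and from 10.2 to 22.6 CPM in WT, with a log2 fold change of 1.5 ± 0.11. Every Akita kidney thus lay above every WT kidney for both enzymes. Gm10639, a predicted protein-coding gene beside Gsta2 on chromosome 9, rose by 2.84 ± 0.24 from a mean of 1.15 CPM. Among genes that averaged 50 counts or more, the largest upward fold changes were those of Ugt1a2 (5.01 ± 0.45) and Ugt1a10 (4.39 ± 0.29), which attach glucuronic acid to bilirubin, hormones and drugs. Ugt1a2 varied widely, with 18.5 to 827 CPM (median 89.9) in Akita and 3.94 to 21.6 CPM (median 5.6) in WT, and the groups overlapped. Ugt1a10 had 6.78 to 113 CPM (median 33.8) in Akita and 0.432 to 8.32 CPM (median 1.48) in WT, so that a single Akita kidney reached into the WT range. The Ugt1a genes lie on chromosome 1 within 88055388 to 88219004 and share their last exons, so that reads could be split between them.

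The remaining leading raised genes act in damage responses, the matrix and transport. Eda2r, a receptor of the tumour necrosis factor family and a target of p53, had 0.978 to 4.76 CPM (median 2.63) in Akita and 0.151 to 0.833 CPM (median 0.372) in WT, a non-overlapping log2 fold change of 2.68 ± 0.17 (adjusted p = 1.31e-15). Grem1, a secreted antagonist of bone morphogenetic proteins, rose from a median of 0.182 CPM to 4.32 CPM (4.75 ± 0.34). Sulf2, which trims heparan sulphate in the matrix, rose by 0.80 ± 0.06, and Papln, a matrix glycoprotein, by 1.19 ± 0.10. Myof, a membrane repair protein of the ferlin family, was higher in all 20 Akita kidneys (32.5 to 60.8 CPM) than in any WT kidney (18.8 to 29.6 CPM), although its log2 fold change was only 0.96 ± 0.06. Mgmt, which removes methyl groups from DNA guanine, rose by 1.27 ± 0.10, Slc5a10, a sodium-coupled sugar transporter, by 1.26 ± 0.11, Tmem43, a nuclear envelope protein, by 0.70 ± 0.06, and the kinase Cdk18 by 0.71 ± 0.06.

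**Figure D1:**
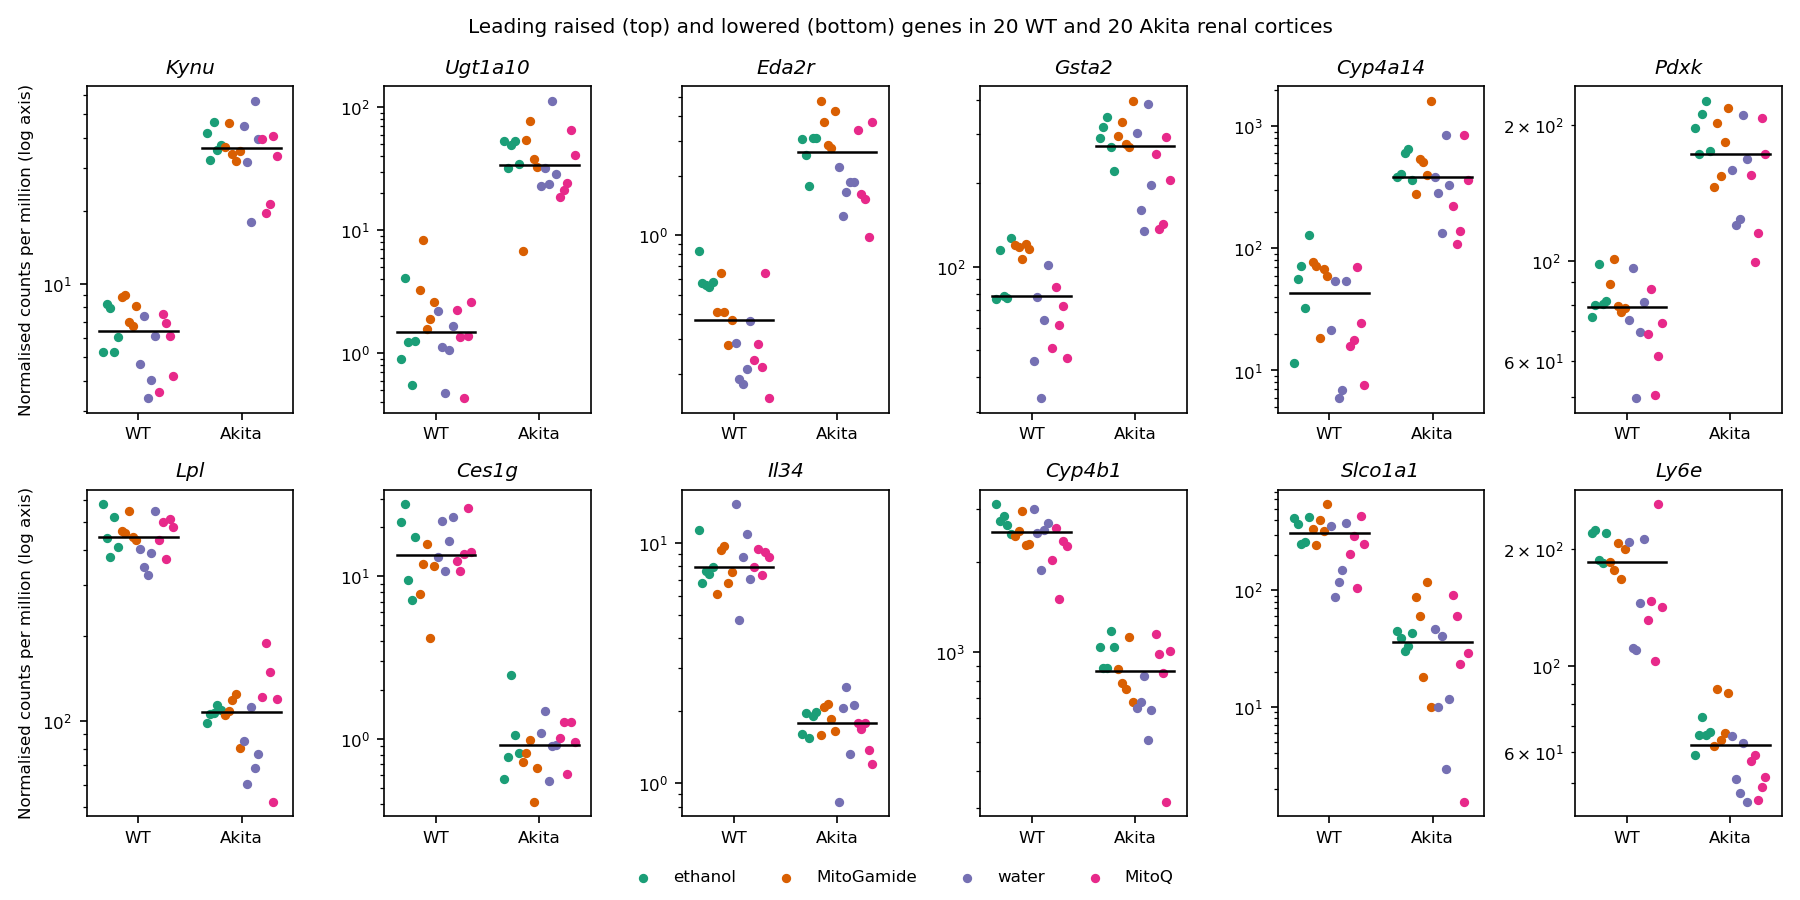
Normalised counts (CPM) on a log axis for 6 raised genes (top row) and 6 lowered genes (bottom row), with 1 point per kidney coloured by treatment and a bar at the median of 20 kidneys. For Kynu, Eda2r and Gsta2 all Akita points lie above all WT points, and for Lpl, Ces1g, Il34, Cyp4b1 and Ly6e all lie below.

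The most lowered transcript was Gm6300, annotated as an unprocessed pseudogene on chromosome 3 (14363117 to 14377587). It had 7.90 to 33.4 CPM (median 19.1) in WT kidneys and at most 0.892 CPM (median 0.213) in Akita kidneys, a log2 fold change of −6.39 ± 0.24 (adjusted p = 1.79e-22). As a pseudogene it may share reads with its parent gene. Cntnap5a, a neurexin family cell adhesion gene, fell from a median of 7.84 CPM to 0.391 CPM (−4.04 ± 0.20), and AA536875, a processed transcript on chromosome 14, fell from 3.31 to 0.137 CPM (−4.44 ± 0.29). None of these 3 had an Akita kidney within the WT range.

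Lpl encodes lipoprotein lipase, which frees fatty acids from circulating triglyceride. It had 52.3 to 189 CPM (median 108) in Akita and 326 to 577 CPM (median 442) in WT, a log2 fold change of −2.10 ± 0.10 (adjusted p = 4.32e-19). Ces1g, a carboxylesterase that hydrolyses lipid esters and drugs, had 0.412 to 2.47 CPM (median 0.914) in Akita and 4.15 to 27.6 CPM (median 13.5) in WT (−3.95 ± 0.19). Cyp4b1, a cytochrome P450 that is abundant in male mouse kidney, had 316 to 1170 CPM in Akita against 1500 to 3110 CPM in WT (−1.57 ± 0.11). The groups did not overlap for any of these 3 metabolic genes.

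Il34 encodes a ligand of the macrophage receptor CSF1R and is made by tubule cells. Its level was 0.841 to 2.51 CPM (median 1.79) in Akita and 4.77 to 14.4 CPM (median 7.89) in WT, a log2 fold change of −2.27 ± 0.11 (adjusted p = 6.60e-19). The antisense gene Gm15895 (−3.51 ± 0.21), on the other strand of chromosome 8, overlaps the 5′ end of Il34 by 287 bases, and the strand setting of the counting is not given in the sources used here, so reads of both genes could be mixed. The receptor gene itself, Csf1r, fell by 0.71 ± 0.08 on the log2 scale, from a median of 32.6 to 19.1 CPM. The other leading lowered genes were Ly6e, a surface antigen (−1.52 ± 0.09), the pseudogene Gm43158 (−3.44 ± 0.21), the transcription factor Etv1 (−1.20 ± 0.08), the annexin Anxa13 (−2.44 ± 0.16), the prohormone-processing carboxypeptidase Cpe (−1.72 ± 0.12), the zinc-binding glycoprotein Azgp1 (−1.81 ± 0.13) and the secreted C1q-like protein C1qtnf3 (−1.71 ± 0.13).

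The differences had the same sign in each treatment for these 30 genes, by the rule that chose them, and their sizes varied to different degrees. Kynu had log2 fold changes of 2.55 on ethanol, 2.22 on MitoGamide, 2.89 on water and 2.48 on MitoQ, and Lpl had −2.12, −2.12, −2.32 and −1.86. Grem1 spread most widely among the raised genes, from 3.54 on ethanol to 5.74 on water. Among the lowered genes AA536875 ranged from −3.35 on water to −5.08 on MitoGamide and Gm15895 from −3.10 on MitoQ to −4.26 on MitoGamide. All 30 genes passed the test within each treatment separately. Over all genes, 157 were called in each of the 4 treatments (64 higher and 93 lower in Akita), whereas 1991 of the 4045, or 49.2%, were called in none of the 4 taken singly.

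**Figure D2:**
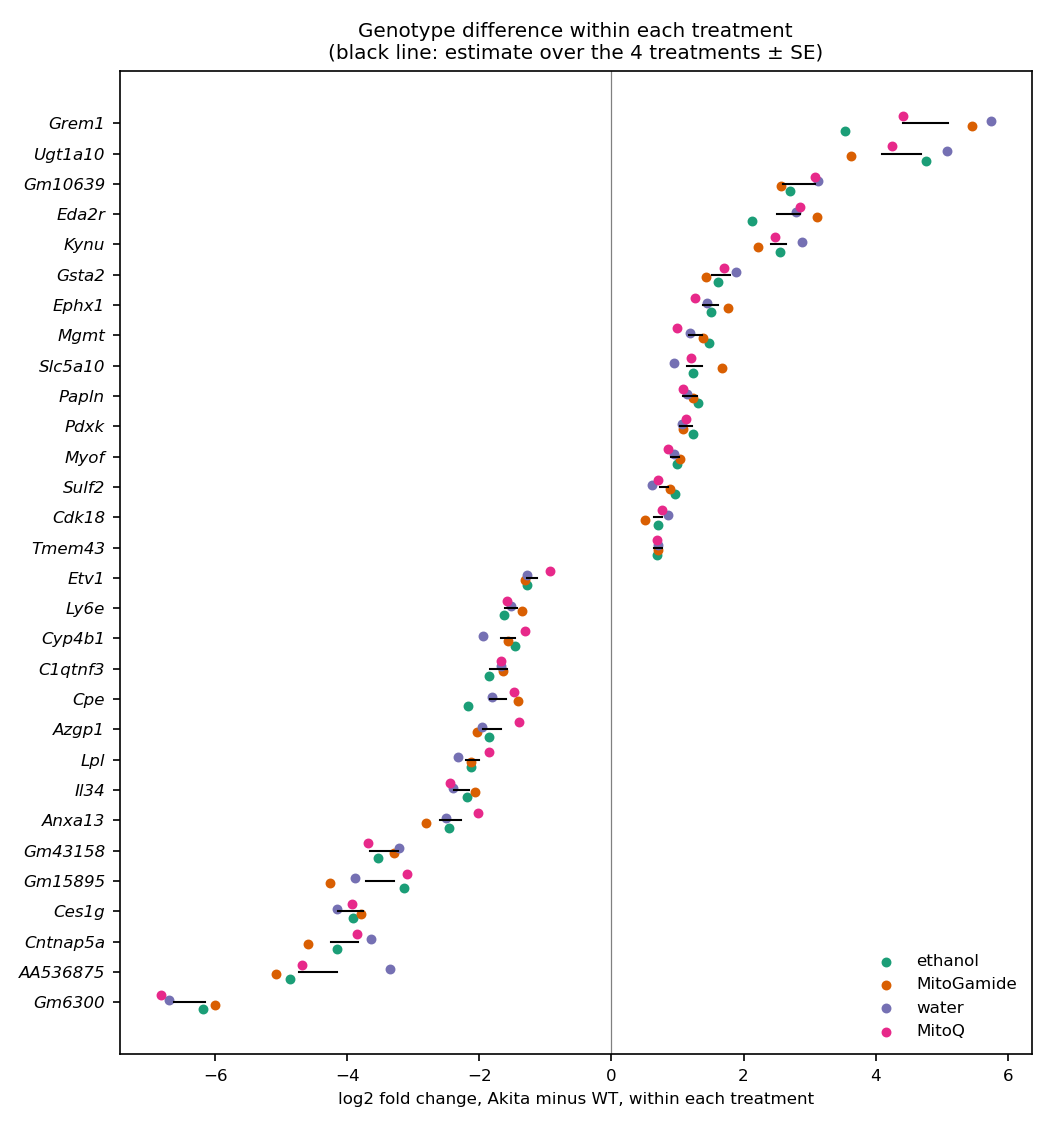
Log2 fold change (Akita minus WT) within each treatment, 1 coloured point per treatment with 5 kidneys per genotype, for the 15 raised and 15 lowered genes of smallest p, with the estimate over the 4 treatments ± SE as a black line. All 4 points of every gene lie on the same side of 0.

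Within single treatments the number of called genes differed: 844 on ethanol (4.75% of those tested), 2011 on MitoGamide (11.3%), 547 on water (3.08%) and 308 on MitoQ (1.73%). Leaving out 1 kidney of a treatment lowered its count in most cases, and on ethanol in every case (to between 515 and 761). The largest falls were to 515 on ethanol without WT ethanol replicate 1 and to 1285 on MitoGamide without Akita MitoGamide replicate 5. On water they were to 345 and 356 without WT water replicate 1 and Akita water replicate 4. On MitoQ they were to 165 and 205 without Akita MitoQ replicate 4 and WT MitoQ replicate 5. The counts do not show that the genotype difference depended on treatment. The interaction of genotype and treatment, tested for each gene, called 0 genes in edgeR (883 at an unadjusted p under 0.05), whereas DESeq2 called 15. The smallest interaction p-values belonged to A730017L22Rik, the histone genes H2ac19 and H1f2, the peroxisomal D-aspartate oxidase Ddo, the thioredoxin reductase Txnrd3, and Hgh1, with adjusted p from 0.195 to 0.219. H1f2, for example, had log2 fold changes of 0.46, 0.93, −0.25 and 0.02 on ethanol, MitoGamide, water and MitoQ. Of the 328 called genes whose direction was not shared, Zranb2, Tmem169 and Fam171a2 had the smallest p, and in each the sign differed in water alone, where the log2 fold changes were 0.00497, 0.04 and −0.00303.

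Around Ins2 on chromosome 7 the littermates may differ in linked sequence as well as in the allele. Within 5 Mb of Ins2, 27 of 104 tested genes were called (26.0%, against 22.8% of all genes), 16 higher and 11 lower. The 5 of smallest p were Osbpl5 (0.41 ± 0.05), Ano9 (0.78 ± 0.10), Deaf1 (0.36 ± 0.05), the potassium channel gene Kcnq1 (0.39 ± 0.06) and the non-coding Gm45889 (−0.54 ± 0.09).

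Sugar handling was examined first among the gene lists, whose members were counted by the same test over all genes. The median log2 fold change over all tested genes was −0.022. List counts take every member that passed the test. The direction was also shared by all 4 treatments for all of these members in most lists, but for 7 of 8 sugar transporters, 14 of 15 glycolysis genes, 21 of 22 amino acid genes, 16 of 17 NRF2 genes, 22 of 25 matrix genes, 6 of 8 immediate early genes, 6 of 7 podocyte markers, 5 of 6 endothelial markers, 2 of 3 macrophage markers and 2 of 3 liver markers. Over all genes 11.0% rose and 11.8% fell, the shares against which the list and marker counts from all 40 kidneys are set. The 20 ethanol and MitoGamide kidneys alone gave more calls than all 40 (5386 genes or 31.2%, against 4045), with 17.1% raised and 14.2% lowered. The 20 water and MitoQ kidneys alone gave 785 (4.31%), with 1.78% raised and 2.52% lowered. A list count from either subset is set against the shares of that subset. Of 14 sugar transporters, 8 rose and 0 fell, with a list median of 0.26, and 5 rose from the water and MitoQ kidneys alone. They included Slc5a10 (above), the urate and glucose carrier Slc2a9 (0.84 ± 0.09), the fructose carrier Slc2a5 (0.94 ± 0.11) and the basolateral glucose carrier Slc2a2 (GLUT2), which went from a median of 174 CPM in WT to 248 CPM in Akita (0.61 ± 0.12). Slc5a2, the SGLT2 glucose transporter of the early proximal tubule, was chosen after its values were seen, and had 198 to 377 CPM in Akita and 197 to 362 CPM in WT, almost the same range, with a log2 fold change of −0.02 ± 0.08 (adjusted p = 0.884). Of 31 genes of glycolysis and gluconeogenesis, 14 rose and 1 fell, and 22 rose from the ethanol and MitoGamide kidneys alone but 3 from the water and MitoQ kidneys alone. Pck1, which commits the proximal tubule to making glucose, had a median of 2720 CPM in Akita and 1270 CPM in WT (1.15 ± 0.17), the fructose bisphosphatase Fbp2 rose by 0.94 ± 0.13 and the pyruvate kinase gene Pklr by 0.82 ± 0.10. The member that fell, Ldhd, oxidises D-lactate, and had 158 to 365 CPM in Akita against 327 to 898 CPM in WT (−1.25 ± 0.11). In the polyol and fructose pathway 2 of 10 genes rose, among them Tkfc, an enzyme of fructose use (0.25 ± 0.07), and 2 fell, the aldose reductase Akr1b3 (−0.44 ± 0.11) and its relative Akr1b10 (−0.44 ± 0.06). Over all genes 11.0% rose and 11.8% fell. From the water and MitoQ kidneys alone 0 of the 10 rose and 1 fell, and the Tkfc call was also lost without the MitoGamide groups.

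Of 16 tested genes of kynurenine breakdown and NAD synthesis, Kynu and Nampt (0.53 ± 0.11), the rate-limiting enzyme of NAD salvage, rose, and 6 fell, among them Aadat, which turns kynurenine into kynurenic acid (−1.05 ± 0.12), and Afmid, which forms kynurenine (−0.78 ± 0.10). The other 8 were not called, and from the water and MitoQ kidneys alone 1 rose and 2 fell. Vitamin B6 salvage had 4 tested genes, of which Pdxk and the phosphatase Alpl (0.46 ± 0.10) rose. From the water and MitoQ kidneys alone 1 rose, and the Alpl call was lost. In amino acid catabolism 16 of 37 genes rose and 6 fell, and 19 rose from the ethanol and MitoGamide kidneys alone and 6 from the water and MitoQ kidneys alone. The homocysteine methyltransferase Bhmt rose by 1.99 ± 0.26, or by 2.25 without WT water replicate 1. Its log2 fold change was 1.01 on water, against 1.9 to 2.85 on the other treatments. The alanine transaminase Gpt rose by 0.70 ± 0.09, whereas cystathionine beta-synthase (Cbs) fell from a median of 135 to 62.8 CPM (−1.10 ± 0.11).

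Fat metabolism moved in more than one direction. Of 37 genes of fatty acid oxidation and PPAR-alpha action, 17 rose and 6 fell, and 22 rose from the ethanol and MitoGamide kidneys alone and 5 from the water and MitoQ kidneys alone. The omega-hydroxylases Cyp4a14 and Cyp4a10 rose by 3.49 ± 0.34 and 1.55 ± 0.19, with Cyp4a14 at 108 to 1620 CPM in Akita and 5.94 to 128 CPM in WT. Bdh1, which interconverts ketone bodies, and Cd36, which takes up fatty acids, fell by 1.08 ± 0.13 and 1.11 ± 0.16. Of 37 genes of cholesterol and fatty acid synthesis, 3 rose and 11 fell. The balance differed by subset, with 8 raised and 8 lowered from the ethanol and MitoGamide kidneys alone and 0 raised and 4 lowered from the water and MitoQ kidneys alone. Idi1, of the cholesterol branch, fell by 1.08 ± 0.19 and the malic enzyme Me1 by 0.82 ± 0.13, whereas Acacb (0.47 ± 0.07) and Elovl6 (0.72 ± 0.13) rose.

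The antioxidant and NRF2 list had 15 members raised and 2 lowered of 40, and 22 rose from the ethanol and MitoGamide kidneys alone and 9 from the water and MitoQ kidneys alone. Besides Ephx1 and Gsta2 these included the efflux pump Abcc4 (1.14 ± 0.12) and the carbonyl reductase Cbr3 (2.14 ± 0.23). Of 12 genes of defence against dicarbonyls and glycation, the compounds that MitoGamide binds, 1 rose, the aldehyde dehydrogenase Aldh1a1 (2.06 ± 0.19), and 3 fell, among them Aldh3a2 (−0.58 ± 0.11) and the deglycating kinase Fn3k (−0.14 ± 0.05, adjusted p = 0.0281). From the water and MitoQ kidneys alone 1 of these 12 rose and 0 fell, and from the ethanol and MitoGamide kidneys alone 3 rose and 3 fell. The raised count was 2 without the 10 libraries rich in abundant RNAs and 1 to 2 when 1 library was left out. The Fn3k call was lost in 22 of the 40 fits that each left out 1 library. Among gene families of drug clearance, 5 of 16 Ugt genes rose and 5 fell, with Ugt1a1 at 1.6 ± 0.23 and Ugt2a3 at −1.61 ± 0.21 (2 rose and 1 fell from the water and MitoQ kidneys alone). In the carboxylesterase family 8 of 11 fell (5 in that subset) and 0 rose, the lowered ones including Ces1f (−1.11 ± 0.12), Ces2b (−0.91 ± 0.09) and Ces2h (−1.24 ± 0.20). In the Cyp2 family 8 of 19 fell, such as Cyp2a4 (−1.68 ± 0.18) and Cyp2d12 (−1.61 ± 0.17), and 5 rose, such as Cyp2d22 (1.06 ± 0.14) and Cyp2s1 (0.52 ± 0.06), with 3 lowered and 3 raised in that subset. The organic ion transporters of the proximal tubule followed with 12 of 26 lowered and 4 raised (9 and 1 in that subset), the lowered ones including Slco1a1, Slc22a7 (−2.34 ± 0.27) and Slc47a1 (−0.48 ± 0.06).

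The list of genes that androgens raise in mouse kidney had the lowest median of all lists, −1.32, with 13 of 15 lowered and 0 raised. From the water and MitoQ kidneys alone 10 were lowered and 0 raised. Slco1a1, an organic anion carrier, had 1.55 to 118 CPM (median 36.2) in Akita and 86.9 to 544 CPM (median 307) in WT (−2.93 ± 0.32). By treatment the log2 difference was −3.17 on ethanol, −2.65 on MitoGamide, −3.28 on water and −2.65 on MitoQ. Cyp4a12a fell by 2.13 ± 0.27, although it is a close paralogue of Cyp4a12b (0.43, not called) and reads could be split between them, and the steroid dehydrogenase Hsd17b11 fell by 1.31 ± 0.12. Kap, the kidney androgen-regulated protein, was chosen after its values were seen and had 122 to 6280 CPM in Akita against 3350 to 11200 CPM in WT (−1.70 ± 0.27). The Kap call was lost from the water and MitoQ kidneys alone. Pzp, an alpha-macroglobulin, was also lowered (−2.72 ± 0.30). Of 10 genes listed as female-biased in mouse kidney 7 rose (4 from the water and MitoQ kidneys alone), including Cyp4a14 and Abcc3 (1.52 ± 0.17), and 3 fell, including Cyp2a4 and Slc22a7, but the membership of Cyp2a4 and Cyp2d9 on that list is uncertain. Markers of the proximal straight tubule, the segment where many androgen-raised genes are expressed, moved with this list. Of the 8 markers 5 fell and 0 rose, with Atp11a at −1.31 ± 0.16. The summed level of the 8 was 801 to 2110 CPM (median 1560) in Akita and 804 to 4030 CPM (median 2920) in WT. These sums use raw library totals, whereas on the normalized scale Atp11a alone had at least 842 CPM in every WT kidney. The similar lowest sums therefore do not show a shared lowest level. Both lists hold Cyp7b1 and Slc22a30. In bulk cortex, fewer cells of a type and less RNA per cell cannot be told apart.

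Chaperones were lower in Akita cortex. Of 26 genes of the unfolded protein response, 17 fell and 1 rose (median −0.42), and of 21 cytosolic heat shock genes 16 fell and 0 rose (median −0.61). Hspa5, the main chaperone of the endoplasmic reticulum (BiP), had 136 to 299 CPM (median 217) in Akita and 177 to 720 CPM (median 363) in WT (−0.90 ± 0.12, adjusted p = 3.52e-07). Its WT level was 499 ± 120 and 536 ± 179 CPM (SD, n = 5) on ethanol and MitoGamide but 312 ± 80.2 and 348 ± 39.7 CPM on water and MitoQ. The co-chaperones Sdf2l1 (−1.22 ± 0.14) and Hyou1 (−0.63 ± 0.09) and the disulphide isomerase Pdia6 (−0.69 ± 0.08) fell as well. In the cytosol Hsp90ab1 had 322 to 599 CPM in Akita and 477 to 979 CPM in WT (−0.71 ± 0.07), Hsp90aa1 fell by 0.78 ± 0.10, the disaggregase Hsph1 by 1.11 ± 0.12 and the adaptor Stip1 by 0.62 ± 0.08. From the 20 water and MitoQ kidneys alone, 6 unfolded protein response genes and 5 heat shock genes were lowered.

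Genes of the unfolded protein response are known to carry the ER stress response element, CCAAT and CCACG separated by 9 bases of any kind, where the factors ATF6 and NFY bind. The 250 bases before each RefSeq start site were searched on both strands. Of 26 tested genes 22 had a promoter, and 8 of these (36.4%) held the element, against 0.13% of all 27025 promoters in the table and 0.159% of the 11944 tested genes with one. Among the lowered genes 7 of 14 with a promoter held it, and among the list's other genes 1 of 8. The sequences are shown 5′ to 3′ on the gene's strand, from RefSeq with build GRCm38.p6, with the element in capitals, which read CGTGG first where the match is on the other strand.
Hspa5: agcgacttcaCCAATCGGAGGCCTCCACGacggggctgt
Pdia6: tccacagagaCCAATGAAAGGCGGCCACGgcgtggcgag
Hsp90b1: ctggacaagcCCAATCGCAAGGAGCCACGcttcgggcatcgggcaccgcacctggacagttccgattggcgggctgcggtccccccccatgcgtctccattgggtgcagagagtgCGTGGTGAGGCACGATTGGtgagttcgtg
Calr: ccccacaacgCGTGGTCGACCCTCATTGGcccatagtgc
Creld2: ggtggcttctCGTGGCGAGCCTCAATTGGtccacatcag
Syvn1: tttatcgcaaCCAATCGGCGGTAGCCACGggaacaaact
Dnajc3: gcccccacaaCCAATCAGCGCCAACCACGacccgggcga
Canx: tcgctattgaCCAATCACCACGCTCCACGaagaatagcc

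The Hspa5 stretch lies at chr2:34772015-34772053 on the plus strand and the Pdia6 stretch at chr12:17266481-17266519, also on the plus strand. Hsp90b1, the chaperone GRP94, holds 2 elements, at chr10:86705523-86705666 on the minus strand, and had a mean of 261 CPM in Akita and 396 CPM in WT (−0.58 ± 0.09). Calr, the lectin chaperone calreticulin, fell by 0.53 ± 0.08, the disulphide isomerase Creld2 by 0.89 ± 0.15, the ubiquitin ligase Syvn1 by 0.35 ± 0.09 and the co-chaperone Dnajc3 by 0.28 ± 0.10. Calnexin, Canx, was the holder of the element that did not pass the test (−0.23 ± 0.09, adjusted p = 0.0682). These genes were named because the search found them. Promoters were found for 16 of the 21 heat shock genes, under 80%, so the same search was void for that list. The share of 0.159% over tested genes also rests on under 80% of those searched (11944 of 17748). It is a background for the genes with a promoter alone.

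Targets of p53 went the other way, with 16 of 24 raised and 0 lowered (median 0.45), and 9 raised from the water and MitoQ kidneys alone. Besides Eda2r these were headed by Phlda3 (1.28 ± 0.14), an inhibitor of AKT, the RNA-binding protein gene Zmat3 (0.64 ± 0.08) and the kinase Plk2 (0.67 ± 0.09). Cdkn1a, the cell cycle inhibitor p21, was chosen after its values were seen, and had 4.56 to 57.2 CPM (median 10.6) in Akita and 2.55 to 9.04 CPM (median 4.40) in WT (1.54 ± 0.21). The highest value was that of Akita MitoGamide replicate 5. Of 25 tubular injury genes 14 rose and 1 fell (median 0.49), and 4 rose from the water and MitoQ kidneys alone. Spp1, osteopontin, rose from a median of 299 to 636 CPM (1.23 ± 0.13) and the keratins Krt18 and Krt7 by 1.02 ± 0.12 and 0.51 ± 0.07, and the member that fell was Il34. Of 21 immediate early genes 8 rose and 0 fell (9 and 4 rose from the ethanol and MitoGamide and from the water and MitoQ kidneys alone), with Btg2 (0.50 ± 0.10), Ier3 (0.58 ± 0.12), Klf4 (0.61 ± 0.14) and Ier5 (0.30 ± 0.08) of smallest p. Hypoxia-inducible factor targets rose in 8 of 21, in 10 from the ethanol and MitoGamide kidneys alone and in 1 from the water and MitoQ kidneys alone (Adm 0.78 ± 0.11, Egln3 0.70 ± 0.11, Pdk1 0.75 ± 0.12), while P4ha1, a collagen prolyl hydroxylase, was the single member to fall (−0.60 ± 0.06).

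**Figure D3:**
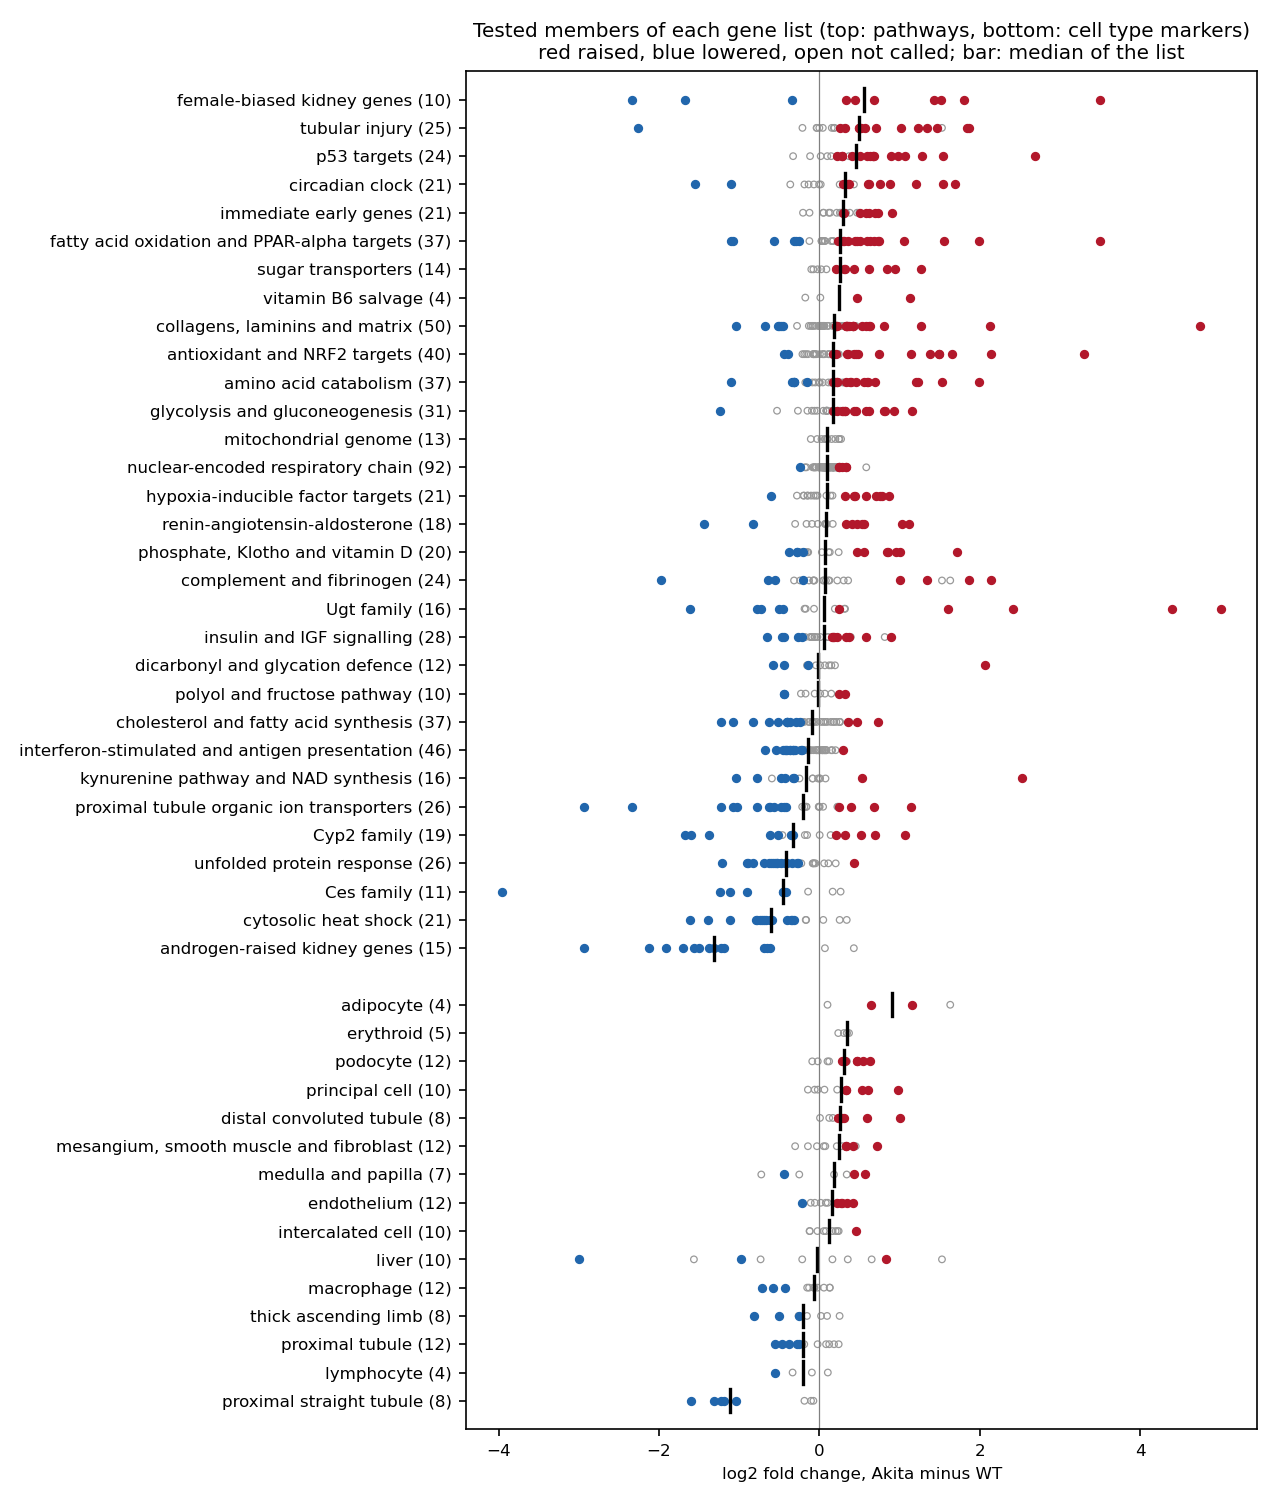
Log2 fold change (Akita minus WT) of each tested member of the gene lists with at least 4 tested genes, pathways above and cell type markers below, with the number tested in parentheses. Filled points passed the test (red raised, blue lowered), open points did not, and the bar is the list's median. Androgen-raised genes, heat shock genes and straight tubule markers lie mostly to the left of 0 and p53 targets mostly to the right.

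Of 50 collagen, laminin and matrix genes, 19 rose and 6 fell (median 0.18), and 6 rose from the water and MitoQ kidneys alone. Grem1 led the raised ones. The fibrillar collagen gene Col5a2 fell (−1.04 ± 0.11), as did Timp3, an inhibitor of matrix proteases, from a median of 1570 to 1030 CPM (−0.68 ± 0.08). Of 24 complement and fibrinogen genes 4 rose and 4 fell, beside 11.0% and 11.8% of all genes. The raised count was 7 with DESeq2, 6 with relative log expression scaling in edgeR and 1 from the water and MitoQ kidneys alone. Masp1, a protease of the lectin pathway, rose (1.01 ± 0.13), and Cfb (−0.64 ± 0.10), Cd55 (−0.55 ± 0.09) and C4a (−1.98 ± 0.24), which resembles C4b, fell. C3, chosen after its values were seen, ranged from 10.5 to 472 CPM in Akita and from 8.33 to 78.7 CPM in WT, overlapping widely (2.14 ± 0.39). The count of raised complement genes also moved when any of many single libraries was left out. It was 8 without WT water replicate 1 or WT MitoQ replicate 4. It was 7 without Akita ethanol replicate 5, Akita MitoQ replicate 1 or WT ethanol replicate 2. The same count came without Akita water replicate 2, 3 or 5 or Akita MitoGamide replicate 1, 3 or 4.

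Interferon-stimulated and antigen presentation genes fell in 13 of 46 and rose in 1. From the ethanol and MitoGamide and from the water and MitoQ kidneys alone 5 and 4 fell, and 8 fell with no filter on low counts. Those named were Ciita, the regulator of class II genes (−0.54 ± 0.09), H2-Ab1 (−0.41 ± 0.09), Cd74 (−0.37 ± 0.08) and H2-T23 (−0.23 ± 0.06). H2-Ab1, Cd74 and H2-T23 were not called from the ethanol and MitoGamide kidneys alone, nor H2-T23 without the ethanol groups. Of 12 macrophage markers 3 fell (median −0.07), Csf1r first. Fcgr1 was at −0.57 ± 0.18, but at 0.22 on MitoQ, and its call was lost without the ethanol, MitoGamide or water groups. Of 4 lymphocyte markers 1 fell, the pan-leukocyte gene Ptprc, from a median of 16 to 11.2 CPM (−0.56 ± 0.07). Over all genes 11.8% fell. The summed macrophage markers had medians of 113 CPM in Akita (80.4 to 133) and 129 CPM in WT (67.3 to 161). Their part in the lower antigen presentation genes was not tested.

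The renin-angiotensin-aldosterone list had 7 of 18 genes raised and 2 lowered, and 4 raised from the water and MitoQ kidneys alone. Ace, the angiotensin-converting enzyme, had 24.6 to 123 CPM (median 65.2) in Akita and 69.2 to 259 CPM (median 182) in WT (−1.45 ± 0.15, adjusted p = 1.31e-09). Its substrate's precursor Agt moved oppositely, from a median of 19.8 CPM in WT to 39.1 CPM in Akita (1.03 ± 0.12). The aldosterone-responsive kinase Sgk1 rose by 1.11 ± 0.13 and the sodium channel subunit Scnn1g by 0.53 ± 0.07. Sgk1 had log2 fold changes of 0.41 on ethanol, 1.02 on MitoGamide, 1.51 on water and 1.51 on MitoQ, a spread that did not pass the interaction test. In insulin and IGF signalling 8 of 28 rose and 5 fell (9 and 0 rose from the ethanol and MitoGamide and from the water and MitoQ kidneys alone, and 5 and 1 fell), with Igf1 (−0.66 ± 0.12), Ghr (−0.45 ± 0.11) and Grb10 (−0.21 ± 0.05) lower and Foxo3 (0.58 ± 0.13) higher. The calls of Ghr and Grb10 were lost without the ethanol groups. Of 20 genes of phosphate, Klotho and vitamin D handling 7 rose and 4 fell. The lowered count was 6 from the ethanol and MitoGamide kidneys alone, 0 from the water and MitoQ kidneys alone, where 4 rose, 1 with no filter on low counts, 2 without the treatment term and 2 to 5 when 1 library was left out. Among the raised were 4 calcium transport genes of the distal nephron, Calb1 (1.00 ± 0.15), S100g (0.85 ± 0.13), Trpv5 (0.55 ± 0.10) and Trpv6 (0.86 ± 0.15). Cyp27b1, which activates vitamin D and was chosen after its values were seen, rose by 1.71 ± 0.36 but was not called from the ethanol and MitoGamide kidneys alone.

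Clock genes changed in 13 of 21 cases, 11 raised and 2 lowered. Ciart, a repressor within the clock, had a median of 4.79 CPM in Akita and 1.31 CPM in WT (1.70 ± 0.24), Bhlhe41 rose by 1.54 ± 0.17 and Cry2 by 0.87 ± 0.15. The lowered pair were the activators Npas2 (−1.55 ± 0.24, medians 2.94 and 10.8 CPM) and Arntl (−1.11 ± 0.23, chosen after its values were seen). The time of day at which kidneys were taken is not given in the sources used here. From the water and MitoQ kidneys alone 1 clock gene was raised and 1 lowered.

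**Figure D4:**
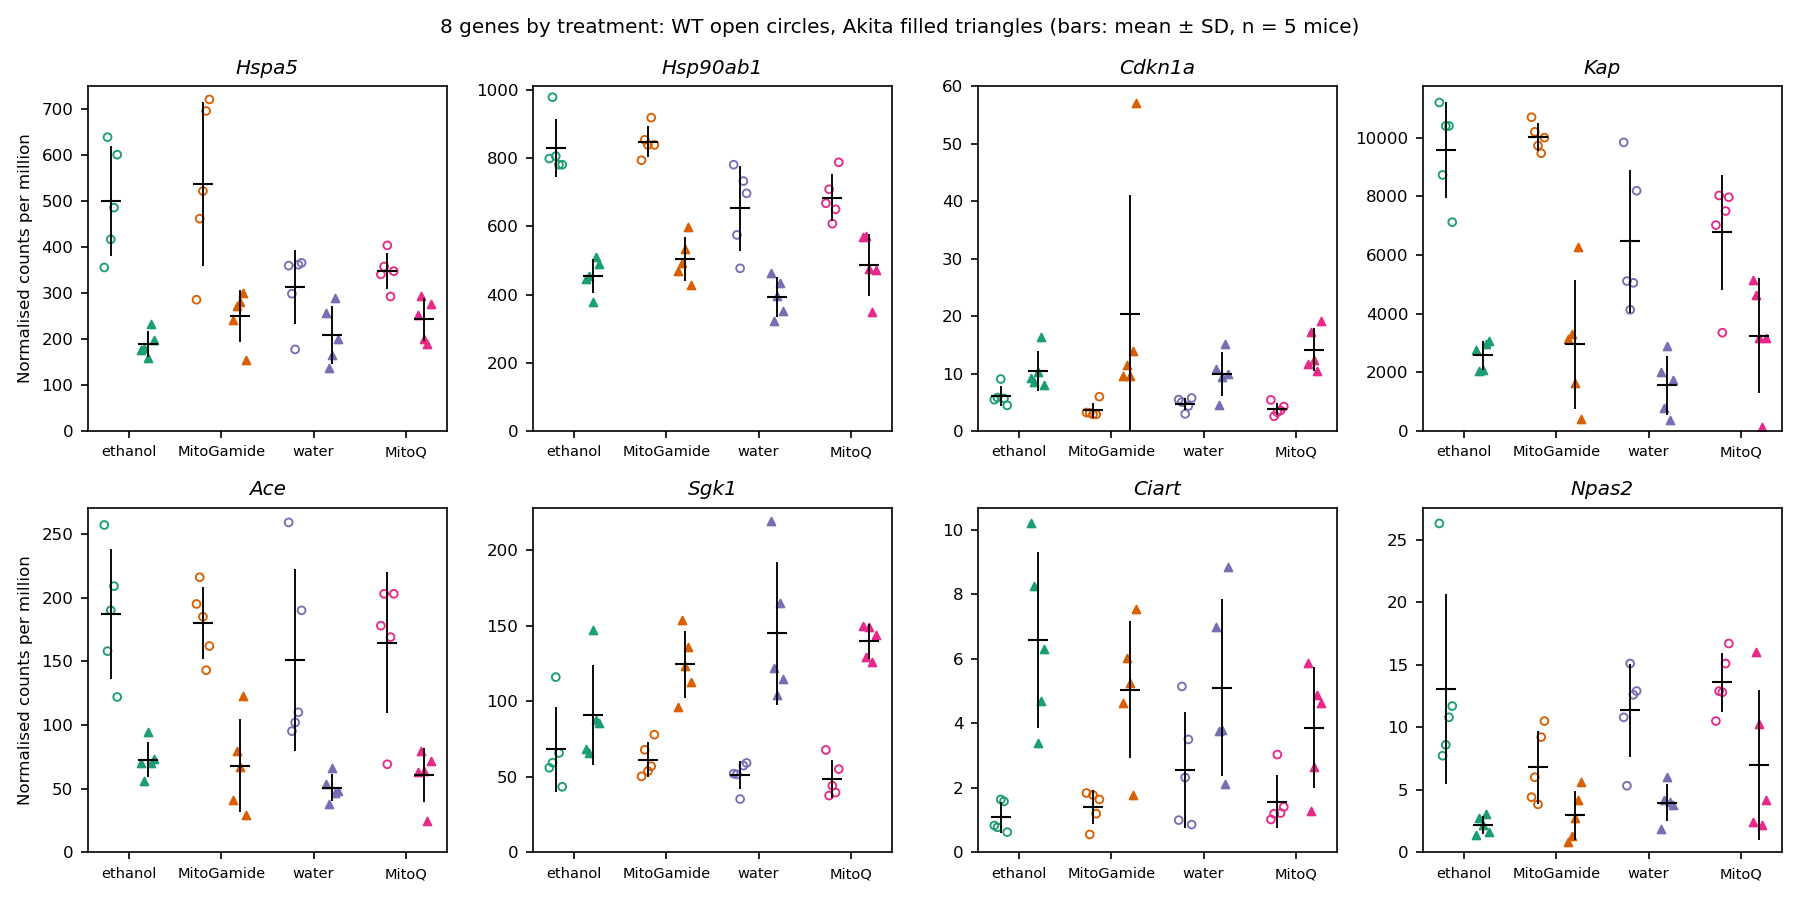
Normalised counts (CPM) of 8 genes in each of the 8 groups, WT as open circles and Akita as filled triangles, with mean ± SD of 5 kidneys as black bars. Hspa5, Hsp90ab1, Kap, Ace and Npas2 are lower and Cdkn1a, Sgk1 and Ciart higher on average in Akita under each treatment, and 1 Akita MitoGamide kidney at 57.2 CPM widens the Cdkn1a bar, which is clipped at 0.

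Of 92 nuclear-encoded subunit genes of the respiratory chain 5 rose and 1 fell (median 0.10), below the 11.0% and 11.8% of all genes, and 80 had a log2 fold change above 0. The raised ones included Ndufa5 (0.33 ± 0.07), Ndufa7 (0.33 ± 0.09), Uqcrq (0.25 ± 0.06) and Cox5b (0.28 ± 0.08). The count depended on the libraries used. Without the 10 libraries rich in abundant RNAs 25 rose, where 2855 of all 17563 genes tested rose. From the ethanol and MitoGamide kidneys alone 38 rose (where 17.1% of all genes rose), and from the water and MitoQ kidneys alone 0. The count was 14 without the water groups or Akita water replicate 2 alone, 10 without WT water replicate 1 and 8 without WT water replicate 5. The calls of Ndufa7, Uqcrq and Cox5b were lost without the MitoGamide groups, and that of Cox5b without the ethanol groups. Of the 13 protein-coding genes of the mitochondrial genome none was called (median 0.10, edgeR), and DESeq2 called 1. When 1 library was left out, 0 to 2 of them rose in edgeR. The share of mitochondrial ribosomal RNA, given above, was higher at the median in Akita under each treatment, and its part in these counts was not tested.

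Cell type markers were counted in the same way. Podocyte markers rose in 7 of 12 with 0 lowered, Cdkn1c, a cell cycle inhibitor, among them (0.64 ± 0.13). Endothelial markers rose in 5 of 12 and fell in 1 (Plvap 0.42 ± 0.09, Eng 0.34 ± 0.07), and mesangial, muscle and fibroblast markers rose in 4 of 12 (Gata3 0.33 ± 0.08, and Dcn 0.42 ± 0.13, whose call was lost without the MitoGamide or the MitoQ groups). Along the distal nephron 5 of 8 distal convoluted tubule markers rose (Trpm6 0.59 ± 0.13) and so did 5 of 10 principal cell markers, with the water channel Aqp2 at 56.9 to 132 CPM in Akita and 18.8 to 87.6 CPM in WT (0.98 ± 0.13). Of 10 intercalated cell markers 1 was called, a share near the 11.0% of all genes that rose (Aqp6 0.46 ± 0.13, not called without the MitoGamide groups). From the ethanol and MitoGamide kidneys alone 4 of the 10 rose, where 17.1% of all genes rose. Without the 10 libraries rich in abundant RNAs 3 rose, where 2855 of all 17563 genes tested rose. Proximal tubule markers fell in 5 of 12 (Slc27a2 −0.47 ± 0.06, Acsm2 −0.55 ± 0.10) and thick ascending limb markers in 3 of 8 (Cldn10 −0.82 ± 0.15, Umod −0.50 ± 0.11). From the ethanol and MitoGamide kidneys alone 1 ascending limb marker fell and Umod was not called (−0.26), and from the water and MitoQ kidneys alone 1 fell. The summed proximal tubule markers had medians of 17100 CPM in Akita and 22200 CPM in WT, and the summed podocyte markers 377 and 318 CPM. From the water and MitoQ kidneys alone no podocyte, endothelial, mesangial or intercalated cell marker was called, 1 distal convoluted tubule and 2 principal cell markers rose, and 1 proximal tubule marker fell.

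Markers of tissues outside the cortex were present at varied levels. Of 7 tested medullary markers, whose sums had medians of 754 CPM in Akita and 675 CPM in WT, 2 rose and 1 fell. The 5 tested erythroid markers were not called, and summed to medians of 1030 CPM in Akita and 818 CPM in WT. Liver markers summed to at most 168 CPM in Akita and 741 CPM in WT. Of 10 liver markers Trf rose (0.83 ± 0.22, not called without the MitoGamide groups) and 2 fell, Ttr (−0.98 ± 0.22) among them, and without WT water replicate 1 the counts were 5 and 1. Of 4 adipocyte markers 2 rose, Pck1, which the proximal tubule itself expresses, and Fabp4 (0.64 ± 0.11). From the water and MitoQ kidneys alone 1 rose, and the Fabp4 call was lost. The adrenal list had 1 tested gene and the pancreas list 1, neither called, and no skeletal muscle marker reached a mean of 10 counts.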

How the data were processed

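RNA from the renal cortex of individual mice was depleted of ribosomal RNA and sequenced by the authors with a strand-specific kit. The authors trimmed reads with Skewer, quantified them with kallisto 0.46.1 against GENCODE mouse v25 transcripts (GRCm38) and summed them to genes in R 4.0.2, and the deposited values are estimated counts, not normalized. They were rounded to whole numbers here. Coordinates are from GENCODE M21 (GRCm38), which holds 99.5% of the gene identifiers.

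Genes that averaged 10 counts or more were fitted in edgeR 4.0.16 (R 4.3.3, TMM) with treatment as block and genotype as effect, by the quasi-likelihood test at a Benjamini-Hochberg adjusted p under 0.05. Per-treatment effects came from a nested fit and the interaction from a joint test. CPM of individual genes use TMM library sizes. Summed CPM of marker lists use raw library totals without the TMM factors. The sums and the CPM of individual genes are therefore on different scales. Counts on abundant RNAs leave a smaller share of a library for all other genes. Whether libraries rich in them measure low genes less precisely was not tested. The fits were tested on simulated data with known changes. DESeq2 1.42.0, other filters and scalings, blocks, and libraries or treatments left out were alternatives.

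The comparison, its 49 gene lists and its tests were chosen with earlier results of these data known. Genes were named by a rule: the 15 raised and 15 lowered of smallest p, the 5 of largest fold each way that averaged 50 counts or more, up to 4 per pathway list and 2 per marker list by p, 6 by interaction, 5 near Ins2, up to 5 each way without overlap, and 3 failing the direction rule. Cdkn1a, Arntl, Cyp27b1, C3, Kap and Slc5a2 were added after their values were seen. Genes mentioned beside a list as its remaining member, and those found by the promoter search, are also outside the rule. Some genes that the rule names are not reported here.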

Additional observations from a re-analysis of the deposited data

Results flagged for a closer look

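Among 96 sets of 5 libraries examined (the leading genes and library measures in each group), 13 had a highest library far from the other 4, by Dixon's criterion at 95%, where chance gives about 1 in 20. In Akita kidneys these were Gm6300 on MitoQ (replicate 1, 0.616 CPM, others at most 0.153), Cntnap5a on MitoQ (replicate 2, 1.19 CPM, others at most 0.509), Ces1g on ethanol (replicate 3, 2.47 CPM, others at most 1.05), Ugt1a10 on water (replicate 4, 113 CPM, others at most 32.2) and Grem1 on water (replicate 5, 17.8 CPM, others at most 5.46). In WT kidneys they were Ugt1a10 on MitoGamide (replicate 2, 8.32 CPM, others at most 3.26) and on ethanol (replicate 2, 4.10 CPM, others at most 1.26), Lpl on MitoGamide (replicate 3, 547 CPM, others at most 466), Eda2r on MitoQ (replicate 4, 0.648 CPM, others at most 0.283) and on ethanol (replicate 1, 0.833 CPM, others at most 0.58), Ces1g on MitoQ (replicate 4, 26.4 CPM, others at most 14.2) and Il34 on ethanol (replicate 1, 11.3 CPM, others at most 7.88). The remaining one was WT MitoQ replicate 3, in which the 10 most abundant genes took 72.5% of counts against at most 40.1% in the other 4.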

How the results depend on the processing

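The count of 4045 genes was 4345 with DESeq2 and 3990 with another scaling, which shared 3998 and 3878 of the calls. Replicate numbers did not pair the libraries (4 of 20 pairs correlated over 0.1), and with the replicate number as a block 4026 genes were called, or 3930 with a block within treatment. Leaving out the ethanol groups gave 2397 genes (1015 lowered), of which 2375 had 1 direction (1004 lowered), and leaving out MitoGamide gave 2412 (1222 raised, 1190 lowered), of which 2388 had 1 direction (1180 lowered). Alternatives chosen after seeing the data left out 10 libraries or took 1 arm. The water and MitoQ kidneys alone gave 785 genes (325 raised, 460 lowered), all of 1 direction, and the ethanol and MitoGamide kidneys alone 5386 (2944 raised, 2442 lowered), 5382 of them of 1 direction (2941 raised). Interaction calls were 15 with DESeq2 and 1 without the 10 libraries. Within ethanol 470 genes were called with no filter, 1790 without the 10 libraries and 1987 in its arm, and within MitoGamide 1304, 3920 and 4140. Within water the counts were 321 without the ethanol groups, 878 without the 10 libraries and 210 in its arm, and within MitoQ 478 with DESeq2, 196 with no filter, 198 without the ethanol groups, 484 without the water groups and 103 in its arm. The cause of these shifts was not tested. Leaving out 1 library gave 3781 to 4381 genes (1852 to 2474 raised, 1709 to 2208 lowered), 3478 to 4075 of 1 direction (1684 to 2281 raised, 1617 to 1996 lowered), 0 to 1 interactions, and 515 to 1008 within ethanol, 1285 to 2386 within MitoGamide, 345 to 690 within water and 165 to 393 within MitoQ. Of 163 named genes that were called, none reversed in the settings run for them, which did not include the 6 named by interaction, and the water and MitoQ kidneys alone lost 46 of these calls. Values near 0 changed sign: mt-Nd6 without the water groups (−0.04) and Slc5a2 without the ethanol groups (0.0013), the water groups (0.02) or the 10 libraries (0.03) and from −0.04 to 0.02 without single libraries. Genes of few counts are limited by depth.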
